A study of Arabidopsis thaliana with 12 samples.

Results

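AT1G73480 is a gene of Arabidopsis thaliana on chromosome 1, known as a predicted alpha/beta hydrolase. The files and the annotation table used here give only its locus name. It is 1 of 21010 genes that the array files pair with a probe set of their own, and 1 probe set names it. It was chosen from the measured values: between the early and the late wild-type arrays it changed strongly and with little spread within each group. The values from that comparison are therefore given as a description, with no test. AT1G73480 itself was tested only between CCA1-34 arrays, with the spread estimated over all 12 arrays and, beside it, over the CCA1-34 arrays alone.

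The alpha/beta hydrolases are a large superfamily that shares a core fold of beta strands and helices, usually with a catalytic serine, histidine and acid. It includes lipases and esterases, which cut ester bonds of fats and other compounds, and in plants also hormone receptors that keep the fold, such as those for gibberellin and strigolactone. A substrate for AT1G73480 is not annotated in the files or in the annotation table used here.

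Whole seedlings were measured on 12 Affymetrix arrays, 3 in each of 4 groups. The lines were wild-type Columbia (Col) and CCA1-34, an arrhythmic transgenic line with overexpression of CCA1, which encodes a Myb-type repressor of the plant clock. The promoter that drives the transgene is not given in the labels. Seedlings of all groups grew on 3% sucrose, first for 4 days in short days (8 h of light, 16 h of darkness) and then in repeated cycles with 160 min of light before 320 min in the dark. They were harvested after 120 min of darkness, at 280 min (early) or 1240 min (late) after dawn. Replicates 1, 2 and 3 of each group were seedlings aged 5, 6 and 7 days. Per the design text, Col grew in the early dark period but not in the late one, and CCA1-34 grew in both. Dishes held about 100 seedlings, and the labels do not say how many dishes an array stands for.

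Values are the deposited log2 values, on which a difference of 1 is a doubling, and array medians lay between 4.01 and 4.12. CCA1 was at 8.46 to 10.2 on the 6 CCA1-34 arrays and at 2.47 to 6.37 on the 6 Col arrays, without overlap. The labelled tissue was checked with root and green tissue markers. The mean of 14 measured root markers lay between 4.47 and 5.92 over the arrays, and that of 5 measured green tissue markers between 12.2 and 12.6. In whole seedlings, fewer cells of a type and less RNA per cell cannot be told apart.

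AT1G73480 was high on all arrays of the groups in which seedlings grew, and low on the Col late arrays. In Col early it was at 6.28, 6.21 and 6.00 at 5, 6 and 7 days. In Col late it was at 3.42, 3.62 and 3.46. The Col groups did not overlap, which is what the choice of the gene fixed.

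In CCA1-34 early the gene was at 6.65, 5.93 and 5.42 at 5, 6 and 7 days. In CCA1-34 late it was at 5.57, 5.94 and 5.22. These groups overlapped with each other, and all 6 arrays lay above the highest Col late array.

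**Figure D1:**
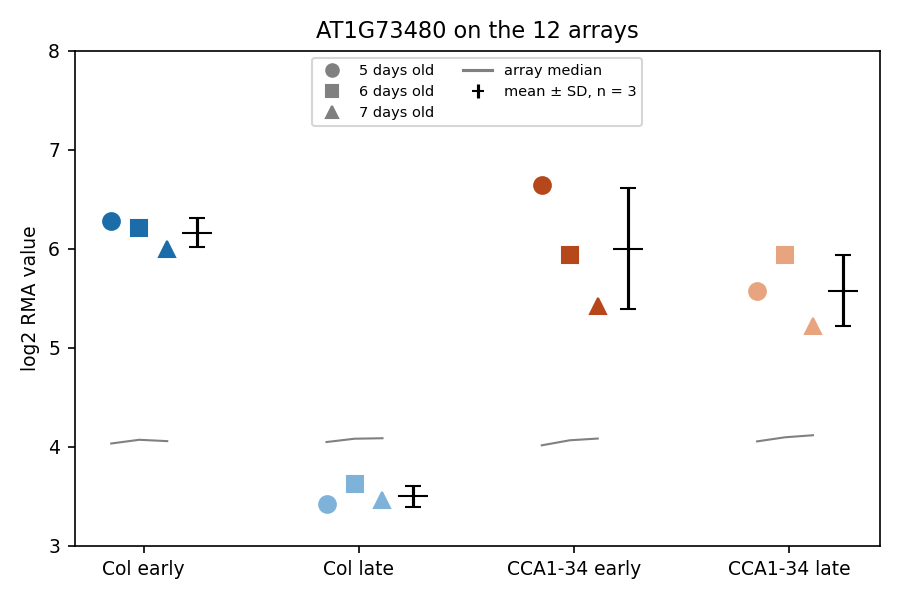
Log2 values of AT1G73480 (y axis) on each array of the 4 groups (x axis), with the marker shape giving seedling age, the grey lines the array medians and the black bars the mean ± SD of 3 arrays. The 3 Col late arrays sit between 3.42 and 3.62, under the array medians, and the other 9 arrays between 5.22 and 6.65.

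The order of the group means was Col early, CCA1-34 early, CCA1-34 late and Col late. They were 6.16 ± 0.15, 6.00 ± 0.61, 5.58 ± 0.36 and 3.50 ± 0.11 (SD, n = 3). Neighbours among the first 3 overlapped, and the step down to Col late was the only one without overlap. Col early exceeded Col late by 2.66 (SE 0.271), which is 6.32-fold on the linear scale. CCA1-34 late exceeded Col late by 2.08, or 4.22-fold, and CCA1-34 early minus Col early was -0.16. The Col late values lay under their array medians by 0.46 to 0.63. Whether they exceed background cannot be read from the deposited values. The gene was also chosen for a strong change in Col, so both folds are a description and not bounds.

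The Col difference was present at every seedling age. It was 2.86 at 5 days, 2.58 at 6 days and 2.53 at 7 days. At the late time CCA1-34 exceeded Col by 2.15, 2.32 and 1.76 at the same ages.

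At the early time the sign of the line difference was not the same at all ages. CCA1-34 minus Col was 0.37 at 5 days, -0.27 at 6 days and -0.57 at 7 days.

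Within CCA1-34 the early and late dark periods did not differ beyond the spread. On the CCA1-34 arrays alone, early minus late was 0.42 (SE 0.327, 95% interval -0.35 to 1.20), with limma's Benjamini-Hochberg adjusted p = 1.00 and an unadjusted p = 0.235. The fit on all 12 arrays also takes in the Col arrays, whose low spread was part of the choice, so its error is smaller (SE 0.271, 95% interval -0.18 to 1.03), with limma's adjusted p = 1.00 and an unadjusted p = 0.147. The differences by seedling age were 1.07, -0.01 and 0.21. The exact permutation test of the 3 against 3 arrays gave p = 0.50, two-sided, where the design allows no p below 0.10. In the fit on all 12 arrays limma called 0 of 22746 probe sets (0.0%), and 382 had an unadjusted p under 0.05.

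The CCA1-34 difference depended on single arrays. It was 0.10 without CCA1-34 early replicate 1, 0.71 without CCA1-34 early replicate 3 and 0.25 without CCA1-34 late replicate 3. In the fit over both lines the adjusted p lay between 0.939 and 1.00 without any 1 of the 12 arrays. The labels do not say whether arrays came from separately sown cultures, so p-values measure only the spread between these samples, which may be technical.

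The spread of AT1G73480 differed between the lines in size. Its SD within groups was 0.129 in Col, against a median of 0.205 over all probe sets, and 0.504 in CCA1-34, against a median of 0.174. In Col 25.7% of probe sets had a lower SD, and in CCA1-34 94.2% had one. The low spread in Col was part of the choice, and the difference in spread was not tested.

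In CCA1-34 the values were lower in older seedlings at the early time, and lowest at 7 days at both times. The slope over age, with time of day as a factor, was -0.39 per day (SE 0.137, 95% interval -0.73 to -0.06) in limma's fit on the 6 CCA1-34 arrays. It did not pass over all probe sets (adjusted p = 0.272, unadjusted p = 0.0268). Age goes with the replicate number, and each age gave 1 early and 1 late CCA1-34 array, which the fit takes as independent. Deviations of these same-age arrays over all probe sets correlated with r = 0.42, -0.06 and 0.37 for replicates 1, 2 and 3. The interval and p-values of the slope may therefore be too small. In that fit limma called 0 of 22746 probe sets (0.0%), while 3274 (14.4%) had an unadjusted p under 0.05. In the 4 group comparisons that share was 1.68% to 5.41%. The slope was -0.24 without CCA1-34 early replicate 1 and -0.63 without CCA1-34 late replicate 1, with adjusted p between 0.195 and 0.663 over all 6 arrays left out in turn.

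Lists of other genes moved with some of these values and not with others. Against the other arrays of CCA1-34 early, AT1G73480 was 0.97 higher in replicate 1 and 0.87 lower in replicate 3. The 19 measured genes of abscisic acid, cold and dehydration response averaged 0.45 and -0.63 there, and the 14 root cell markers 0.59 and -0.37. In CCA1-34 late replicate 3 AT1G73480 was 0.54 lower, with -0.18 for the abscisic acid list and -0.35 for the root markers. In CCA1-34 late replicate 2, where AT1G73480 was 0.54 higher, the same lists averaged -0.02 and -0.24. On CCA1-34 late replicate 1 the root markers averaged 0.59 with 13 of 14 higher, while AT1G73480 deviated by -0.01. On CCA1-34 early replicate 2 the abscisic acid list averaged 0.18, with AT1G73480 at -0.10. On CCA1-34 early replicates 1 and 3 the 15 genes of acylglycerol and fatty acid turnover averaged 0.39 and -0.14, with 12 and 2 of them higher. On CCA1-34 late replicate 2 they averaged -0.02. On the same early arrays 11 genes that darkness and lack of sugar induce averaged 0.555 and 0.63, so higher on both. The part of these lists in the spread of AT1G73480 was not tested.

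Col early replicate 3 and CCA1-34 early replicate 2 had the highest means of the light-regulated genes. AT1G73480 deviated by -0.25 and -0.10 on them, where the median absolute deviation of all probe sets was 0.22 and 0.17. For Col early replicate 3 the choice of a gene with little spread in Col limited the size of its deviation. On Col early replicate 3, out of 29 measured genes for photoreceptors and for regulators of light and photoperiod responses, 20 exceeded the mean of the other 2 arrays, and the average deviation of all 29 was 0.55. On CCA1-34 early replicate 2, 20 of the 29 did, and the average of all 29 was 0.88. The light list also lay low on Col early replicate 1, with -0.50 and 9 of 29 higher, so its means in Col early were graded, at 5.26, 5.56 and 5.96. A list of 11 starvation genes, which darkness and lack of sugar induce, averaged -1.06 and -1.18 on these arrays, and 2 of 11 were higher on each. The starvation list also spread in Col late, with -1.11 on replicate 1 and 1.22 on replicate 3, where AT1G73480 deviated by -0.12 and -0.06.

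The 3 light regulators with the largest deviations were COL2, HYH and BBX25 on both arrays. COL2, a B-box gene related to CONSTANS, was at 7.31 on Col early replicate 3 against 3.93 and 5.42 on the other arrays of the group. On CCA1-34 early replicate 2 it was at 7.79 against 3.68 and 4.29. HYH, a partner of the light-signalling factor HY5, was at 4.26 against 1.88 and 2.31, and at 5.02 against 1.82 and 1.89.

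BBX25 (STH), another B-box gene, was 2.11 and 2.48 higher on these arrays than in the mean of the others. ASN1, an asparagine synthetase gene induced in darkness, was 4.05 lower on Col early replicate 3 and 3.87 lower on CCA1-34 early replicate 2.

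AT1G73480 was at 6.00 on Col early replicate 3, against 6.28 and 6.21 on the other arrays, a deviation of -0.25, the largest in size of its 6 in Col. In absolute size, 54.3% of probe sets deviated less on this array. On CCA1-34 early replicate 2 it was at 5.93, between the 6.65 and 5.42 of the other arrays, a deviation of -0.10, and 32.6% of probe sets deviated less.

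On Col early replicate 3 other lists also deviated. The 12 genes of handling, touch and heat response averaged 0.87 with 11 of them higher, and the 14 root markers -1.03 with 4 of them higher. On CCA1-34 early replicate 2 these lists averaged 0.03 and -0.22. The 0.03 joins 6 handling, touch and heat genes that were higher, with a mean of 0.77, and 6 lower, with a mean of -0.71. A list of 5 clock and growth genes, CCA1 and PIF4 among them, averaged 1.38 on Col early replicate 3, with 5 higher. On CCA1-34 early replicate 2 that list averaged 0.64, with 3 higher. The abscisic acid list averaged 0.42 and 0.18 on these arrays, with 10 and 11 of 19 higher. Without both arrays the Col difference of AT1G73480 was 2.74 and the CCA1-34 difference 0.46 (limma adjusted p = 1.00). The Col value is a description, since a gene with little spread in Col was chosen.

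**Figure D2:**
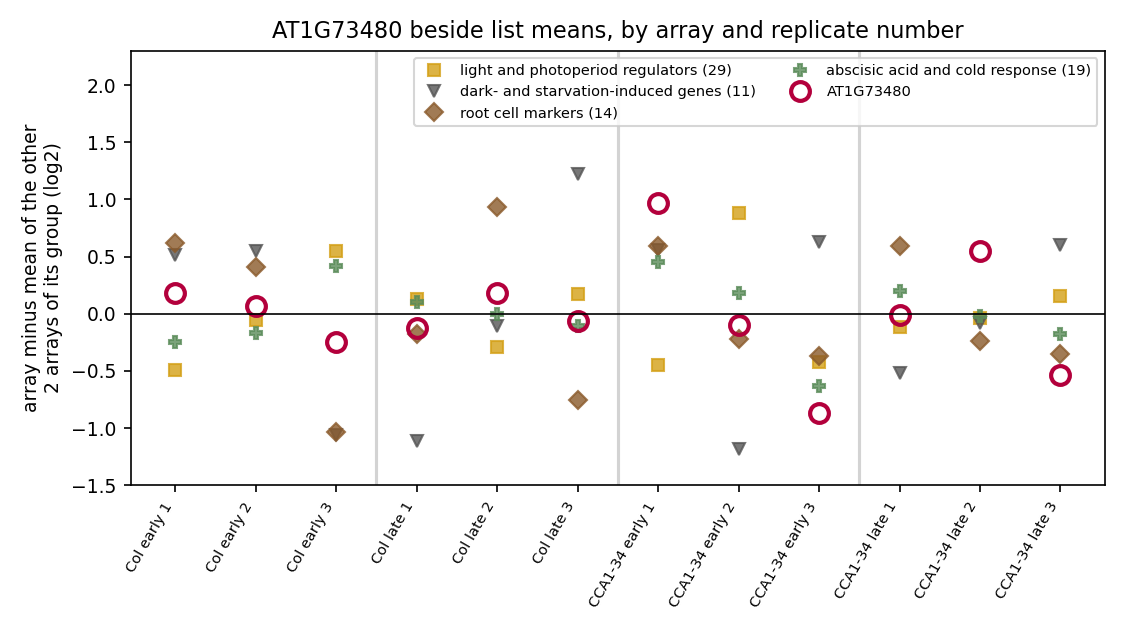
Each array minus the mean of the other 2 arrays of its group (y axis, log2) for AT1G73480 (open circles) and for the means of 4 gene lists (filled symbols), with the 12 arrays by group and replicate number on the x axis. On Col early 3 and CCA1-34 early 2 the light regulators lie at 0.55 and 0.88 and the starvation genes at -1.06 and -1.18. AT1G73480 lies at -0.25 and -0.10 there.

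Among all probe sets AT1G73480 had the highest moderated t in Col early minus late, and the seventh largest difference in absolute size, as a description of how it was chosen. The 6 probe sets with a larger difference had SDs within Col of 0.517 or more, with a median of 0.95, against 0.129 for AT1G73480. Next in the order of moderated t among probe sets with 1 locus came IQD17, AT1G72430 and ATMG00660, with differences of 0.94, -1.25 and 1.27. AT1G72430 is listed as SAUR78, a member of a family of small auxin-up genes. Its level was 5.41 to 5.85 in Col early and 6.72 to 7.10 in Col late.

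All 9 arrays of the growing groups lay above all 3 Col late arrays for 153 of 22746 probe sets (0.673%). For AT1G73480 the lowest of the 9 arrays, at 5.22, exceeded the highest Col late array, at 3.62, by 1.60, the second widest such gap. The widest was that of CDF3, a cycling Dof factor of flowering time, with 1.71. LNK3 (AT3G12320), of a family of clock coactivators, followed with 1.18, then BBX24 (STO), a B-box factor, with 1.11. PIF4, a bHLH factor that promotes elongation, had a gap of 1.04, and GI (GIGANTEA), a clock and flowering gene, also of 1.04. These genes were picked by the gap after their values were seen, and the gap uses the Col arrays that chose AT1G73480.

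The genes of this order differed on the arrays with the highest light list. CDF3 deviated by 1.20 on Col early replicate 3 and by 1.55 on CCA1-34 early replicate 2, LNK3 by 1.36 and 1.74, and BBX24 by 1.24 and 1.37. GI deviated by 2.15 and 0.69. PIF4 deviated by 0.10 and -0.14, and AT1G73480 by -0.25 and -0.10. PIF4 spread more in Col late, from 2.91 to 5.23, than the 3.42 to 3.62 of AT1G73480, which lay within 0.20.

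**Figure D3:**
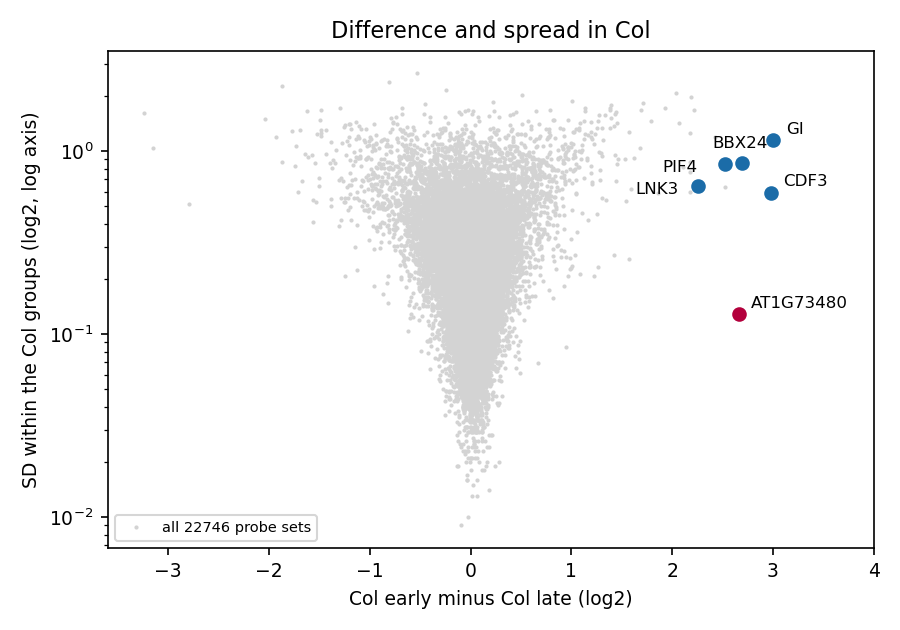
Col early minus Col late (x axis, log2) against the SD within the Col groups (y axis, log2 values on a log axis) for all 22746 probe sets (grey), with the 6 genes of the widest gap marked. AT1G73480, at a difference of 2.66 and an SD of 0.129, lies below the other 5 marked genes, whose SDs run from 0.592 to 1.14.

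The genes with the pattern nearest to AT1G73480 were sought by the root mean square distance between log2 values over the 12 arrays, each probe set centred on its own mean. The median distance of all 21360 other probe sets with 1 locus was 1.12, and 0 of them came within 0.5. The nearest was MGL, methionine gamma-lyase, an enzyme that breaks down methionine, at 0.546. MGL was at 7.14, 7.73 and 7.74 in Col early and at 6.12, 6.27 and 5.93 in Col late. In CCA1-34 it was at 8.05, 7.35 and 7.49 early and at 7.46, 7.25 and 7.00 late.

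Its Col late arrays were below the other 9 as for AT1G73480, with a gap of 0.73. Next came AT3G05640 at a distance of 0.633, AT5G01790 at 0.640 and WES1, a GH3 enzyme gene, which joins auxin to amino acids, at 0.649. They were followed by AT1G80130 at 0.650, PCS1, an aspartic protease gene, at 0.679, PHT4;1, a phosphate transporter gene, at 0.689, and LNK3 at 0.707. CCA1-34 early replicate 1 was the highest of the 12 arrays for AT3G05640, at 7.57, and for MGL, as it was for AT1G73480.

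All 8 were lower on each Col late array than on any other array, with gaps from 0.15 for AT1G80130 to 1.18 for LNK3. That order held for 0.673% of all probe sets, but the 8 were picked for likeness to AT1G73480 on these same arrays. The choice therefore largely fixed it. On the arrays with the highest light list they varied. AT1G80130 was at 7.36 on Col early replicate 3 against 5.52 and 5.35, and WES1 at 7.49 on CCA1-34 early replicate 2 against 8.58 and 8.61. AT3G05640 deviated by -0.62 and -0.89 on these arrays, PCS1 by -0.45 and -0.80, and MGL by 0.31 and -0.42. AT1G73480 was below the other arrays of its group on Col early replicate 3, but between them on CCA1-34 early replicate 2. With Pearson's correlation as the measure, 2 of the 8 nearest were shared, MGL (r = 0.938) and PCS1 (r = 0.902). The 12 arrays share the 4 groups, so these likenesses are a description.

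**Figure D4:**
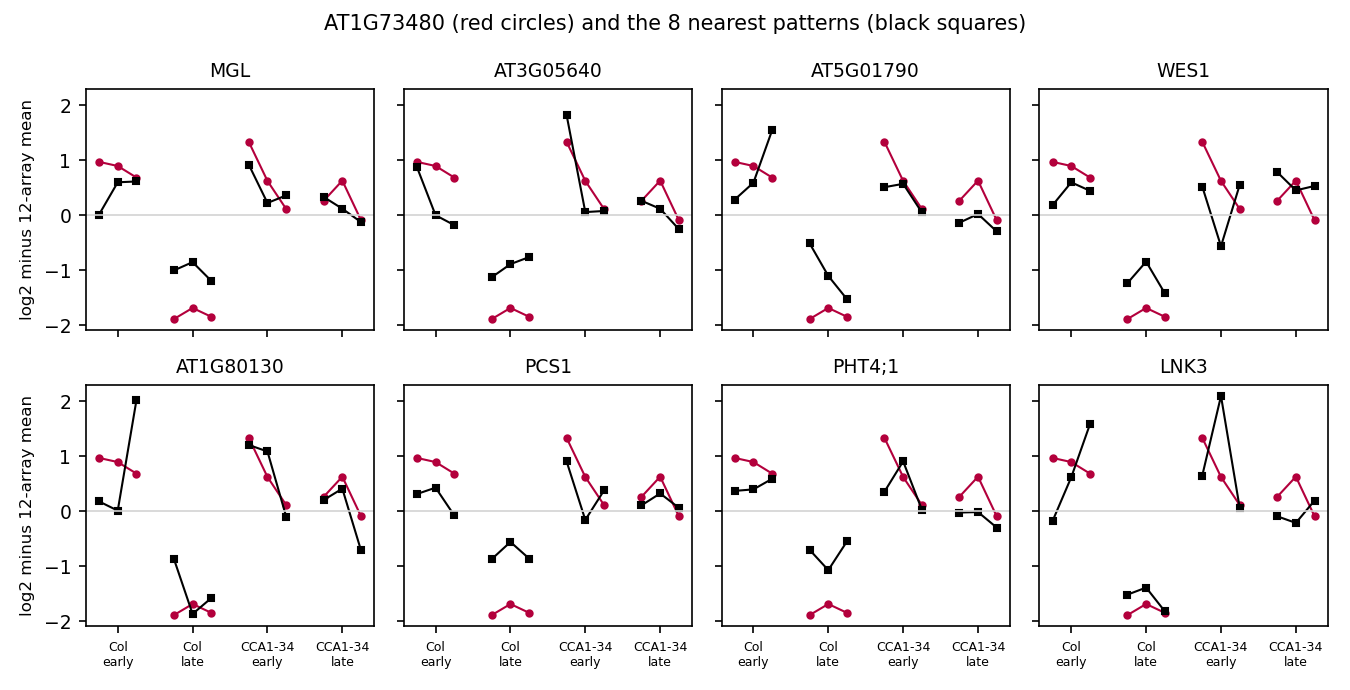
Log2 values minus the mean of 12 arrays (y axis) for AT1G73480 (red circles) and each of the 8 nearest patterns (black squares), by group (x axis) and, within a group, replicates 1 to 3. In every panel the 3 Col late arrays of both genes lie below the other 9 arrays, which the choice of near patterns largely fixed. MGL follows AT1G73480 at a distance of 0.546.

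Genes beside AT1G73480 on the chromosome had Col early minus late differences between -0.13 and 0.63, against its 2.66. The 3 nearest loci on each side with a probe set of their own were AT1G73470, AT1G73440 and AT1G73430 before it and AT1G73490, MKK9 and AT1G73510 after it. Of these 6, limma passed 0 in Col early minus late. Over all 22746 probe sets 1 passed (0.0044%), and 1230 had an unadjusted p under 0.05. The 1 was AT1G73480 itself, which was chosen on this comparison, so its pass is no test of it. AT1G73470, the adjacent locus, had a mean of 6.86 in Col early and 6.23 in Col late, a difference of 0.63 (SE 0.242, limma adjusted p = 0.90, unadjusted p = 0.0248). MKK9, a kinase of a stress-response cascade, had a difference of -0.12, and AT1G73490 one of 0.13.

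A list of 15 further loci of the alpha/beta hydrolases was compared, those counted with AT1G73480 among relatives of monoacylglycerol lipases from general knowledge. The annotation table does not name them as a family. All 15 had a probe set, and 0 passed in any of the 4 comparisons in limma. The background over 22746 probe sets was 1 for Col early minus late and 0 for CCA1-34 early minus late. The 1 is AT1G73480 itself, chosen on Col early minus late, so its pass is no test and no other probe set passed there. For CCA1-34 minus Col early 1 passed (0.0044%). For CCA1-34 minus Col late 2 passed (0.00879%), or 6 probe sets when the replicate number was blocked. At an unadjusted p under 0.05 there were 2, 0, 1 and 0 of the 15, where the shares of all probe sets were 5.41%, 1.68%, 3.57% and 3.79%. Groups that did not overlap, in either direction, were found for 1, 1, 1 and 3 of the 15, against 8.91%, 6.96%, 7.76% and 10.2% of all probe sets.

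The median difference of the list in Col early minus late was 0.04, against 0.01 over all probe sets, with values from -0.69 to 0.99. In CCA1-34 early minus late it was 0.07, against 0.00, with values from -0.16 to 0.29.

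The largest early-minus-late difference in Col among the 15 was that of AT1G18360. It lay between 5.06 and 5.88 in Col early and between 4.23 and 4.45 in Col late, without overlap. The difference was 0.99 (SE 0.253, limma adjusted p = 0.690, unadjusted p = 0.0026), and that in CCA1-34 was 0.29 (adjusted p = 1.00). Its CCA1-34 late arrays, at 4.52 to 5.17, were also all above Col late.

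AT5G16120 and AT2G39400 had the lowest differences in Col, with -0.46 (SE 0.201) and -0.69 (SE 0.469), and their Col groups overlapped. AT2G39400 was 1.13 higher in CCA1-34 than in Col at the early time (unadjusted p = 0.0353, adjusted p = 1.00). LysoPL2, also listed as caffeoyl shikimate esterase, an enzyme of lignin synthesis, differed by 0.06 in Col and by 0.14 in CCA1-34.

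**Figure D5:**
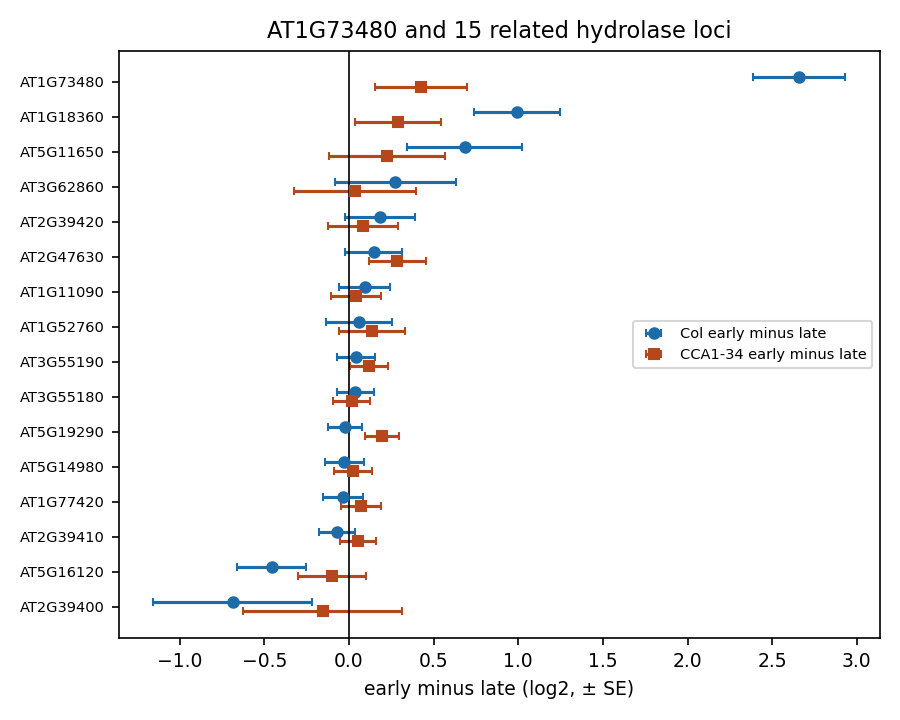
Early minus late (x axis, log2, ± SE of limma's fit) in Col (circles) and in CCA1-34 (squares) for AT1G73480 and the 15 related loci (y axis). The Col difference of AT1G73480 is 2.66, and those of the 15 run from -0.69 to 0.99.

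Of 15 genes of acylglycerol and fatty acid turnover, the enzymes and transporters through which fats are built and broken down, limma passed 0 in the same comparisons. In Col early minus late 13 of the 15 were above 0, against 52.6% of all probe sets. Their median was 0.25, against 0.01 over all probe sets, and 1 had an unadjusted p under 0.05, against 5.41%. The highest differences were 0.77 (SE 0.318, limma adjusted p = 0.90) for LACS7, a peroxisomal acyl-CoA synthetase gene, 0.68 for MFP2 and 0.57 for PKT3, which both encode enzymes of fatty acid beta-oxidation. In CCA1-34 early minus late 11 were above 0, against 50.1% of all probe sets. Their median was 0.10, against 0.00 over all probe sets, and 0 had an unadjusted p under 0.05, against 1.68%.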

How the data were processed

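Per the file headers, the deposited values are log2 values from RMA, a method the submitters' processing notes name too, without version or settings. Since RMA usually equalises the arrays' distributions, a general rise or fall of transcripts would show only in part. The files hold 22810 probe sets, and 64 controls of the array were dropped. The files pair 21361 of the remaining 22746 with a single locus. Symbols came from a TAIR10.1 table, which holds 98.5% of these. Groups, ages and times came from the labels. No coordinates are given, because no build is named for the arrays.

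Two-sided tests used R 4.3.3 and limma 3.58.1 (functions lmFit, contrasts.fit and eBayes, the latter without trend) on all 12 arrays with 4 group means (8 residual degrees of freedom), adjusted by Benjamini-Hochberg over 22746 probe sets at 0.05. The age slope was fitted on the 6 CCA1-34 arrays. Intervals are limma's.

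The gene, the lists and the comparisons were chosen with earlier results of these data known. The rule for names took AT1G73480, CCA1, the 15 relatives, 3 neighbours per side, the 8 nearest patterns, the 3 next by moderated t, and at most 3 members of each other list by size of difference. Genes with several probe sets were represented by the one with the highest mean. Same-numbered arrays share the seedling age, per the labels. Their deviations from group means correlated with r between -0.317 and 0.505, over 0.1 in 12 of 18 pairs, against 7 of 36 pairs of different ages. The number of arrays limits the precision. Other settings tried were the replicate number as a block, a trended prior, a filter on dim probe sets, other scalings and arrays left out.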

Additional observations from a re-analysis of the deposited data

How the results depend on the processing

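AT1G73480 kept its direction under every alternative in Col early minus late (2.60 to 2.74) and CCA1-34 minus Col late (1.89 to 2.26). These 2 use the Col arrays that chose the gene, so this is a description. CCA1-34 early minus late (0.10 to 0.71) and the age slope on CCA1-34 arrays (-0.63 to -0.24) also kept their direction, and neither passed under any alternative. An age slope on all 12 arrays was -0.23 and did not pass. It pools both lines, and so also uses the Col arrays that chose the gene. CCA1-34 minus Col early ran from -0.48 to 0.13, and was above 0 without CCA1-34 early replicate 3. With a block for the replicate number, which goes with seedling age, CCA1-34 early minus late was 0.42 with SE 0.226. The age slope cannot be fitted with this block, since age and replicate number go together. The 15 relatives had 0 calls under every alternative in each of the 4 comparisons.

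Counts of probe sets called moved with the settings, most for the age slope. For CCA1-34 minus Col late there were 6 with the block, 6 with a trended prior, 7 without dim probe sets and 30 without both Col early replicate 3 and CCA1-34 early replicate 2. For CCA1-34 minus Col early there were 2 with a trended prior, without dim probe sets, with arrays centred on medians and with quantile normalization. For Col early minus late there were 13 without both arrays. For the age slope there were 72 with a trended prior, 8 with centred arrays, 7 with quantile normalization, 179 on all 12 arrays and 678 without both arrays, which for this slope leaves out only CCA1-34 early replicate 2. With 1 array left out the counts ran from 0 to 3 for Col early minus late, 0 to 1 for CCA1-34 early minus late, 1 to 3 and 1 to 12 for CCA1-34 minus Col early and late, and 0 to 678 for the age slope, where the highest count is that same fit. The cause was not tested. Between the series table and the array files 0 cells differed, so using that table changed no value. The Col late values lay under the array medians, which limits what can be said of their size.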
